A study of Homo sapiens with 15 samples.

Results

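TGFB1, TGFB2, BMP4, BMPR2, SMAD6, SMAD7, ID1, ID2, ID3 and MSX1, a set of 10 genes that make up or read out TGF-beta and BMP signalling, were followed in A549 cells given interleukin-13 (IL-13). The members are all 19 probe sets of the array that carry one of these symbols alone, of 22283 in all. A further probe set, which carries the symbols of both ID2 and a second gene, was left out. A549 is a human lung adenocarcinoma epithelial line, described in the labels as bronchial, and stands here for 1 cell line in culture. Total RNA was hybridised to 15 Affymetrix human arrays in 5 groups of 3: untreated cells at 0 h (control 0 h), untreated cells at 24 h (control 24 h), and cells harvested 4 h, 12 h and 24 h after IL-13. The sources used here give no dose of IL-13, and no untreated cells of 4 h or 12 h are labelled. At those times the effects of IL-13 and of culture time on a difference from control 0 h cannot be told apart. The labels do not say whether the arrays of a group (a, b and c) came from separate cultures, so the p-values rest on array-to-array spread that may be technical.

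TGF-beta and BMP ligands are secreted dimers that bring together type I and type II serine/threonine kinase receptors. TGF-beta receptors mainly phosphorylate SMAD2 and SMAD3, BMP receptors SMAD1, SMAD5 and SMAD9. With SMAD4 these proteins enter the nucleus and induce target genes, among them the inhibitory SMADs that damp the signal. The ID genes are classic direct targets of BMP signalling: their proteins are helix-loop-helix factors without a DNA-binding domain that hold basic helix-loop-helix factors off DNA. In lung epithelium TGF-beta is known for growth arrest, for matrix production and for a shift to a mesenchymal state. IL-13, a type 2 cytokine, signals through STAT6.

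The promoters of the target genes among the members are shown because MSX1, ID1 and ID3 hold the rises described below, and ID2 is the remaining ID gene among the members. All 10 members matched RefSeq's promoter table by symbol. The sequences run 5′ to 3′ from 250 bases before to 50 bases after the annotated start (RefSeq, GRCh38.p14). The window is chr20:31605039-31605338 on the plus strand for ID1, chr2:8681806-8682105 on the plus strand for ID2, chr1:23559452-23559751 on the minus strand for ID3 and chr4:4859415-4859714 on the plus strand for MSX1. Capitals mark each match, on either strand, to the CCAAT box (letters CCAAT), the TATA box (letters TATAA) and the SMAD box (letters CAGAC).
ID1: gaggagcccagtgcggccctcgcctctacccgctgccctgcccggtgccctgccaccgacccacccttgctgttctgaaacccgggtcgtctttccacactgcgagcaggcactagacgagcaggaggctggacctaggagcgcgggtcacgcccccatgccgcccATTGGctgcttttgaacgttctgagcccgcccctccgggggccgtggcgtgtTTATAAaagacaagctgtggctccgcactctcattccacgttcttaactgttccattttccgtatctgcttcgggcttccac
ID2: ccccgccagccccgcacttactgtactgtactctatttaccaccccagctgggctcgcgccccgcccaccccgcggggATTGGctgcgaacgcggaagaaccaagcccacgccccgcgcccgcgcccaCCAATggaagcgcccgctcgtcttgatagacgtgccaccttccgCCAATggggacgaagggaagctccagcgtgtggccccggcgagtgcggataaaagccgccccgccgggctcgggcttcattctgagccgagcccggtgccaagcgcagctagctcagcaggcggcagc
ID3: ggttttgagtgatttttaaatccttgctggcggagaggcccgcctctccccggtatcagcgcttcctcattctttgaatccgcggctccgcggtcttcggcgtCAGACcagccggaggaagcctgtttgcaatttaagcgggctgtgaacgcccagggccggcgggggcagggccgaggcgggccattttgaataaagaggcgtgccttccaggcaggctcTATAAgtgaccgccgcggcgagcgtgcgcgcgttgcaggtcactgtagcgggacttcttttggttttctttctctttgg
MSX1: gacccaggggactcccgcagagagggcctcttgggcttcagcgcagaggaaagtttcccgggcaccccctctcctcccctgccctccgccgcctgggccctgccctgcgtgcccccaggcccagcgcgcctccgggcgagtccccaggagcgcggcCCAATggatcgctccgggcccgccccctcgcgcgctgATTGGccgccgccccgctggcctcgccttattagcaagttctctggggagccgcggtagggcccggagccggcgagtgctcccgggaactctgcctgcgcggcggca
The SMAD box is a short element that SMAD3 and SMAD4 can bind. ID1 holds 1 CCAAT box and, at bases 220 to 224 of the window, a TATA box match that overlaps a second one on the other strand at bases 219 to 223. ID2 holds 3 CCAAT boxes, MSX1 holds 2, and ID3 has a TATA box match at bases 222 to 226 and the only SMAD box match among these windows, at bases 104 to 108. Of 35116 promoters of this length in the table, 34.6% hold the CCAAT box, 20.4% the TATA box and 45.3% the SMAD box. A GC-rich element bound by SMADs (letters GGCGCC) and the STAT6 palindrome (TTC, then 4 bases of any kind, then GAA) were also searched on both strands. They are in 19.2% and 6.44% of all promoters and in none of these windows, which says only that these letters are not there.

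Values below are signal intensities as deposited, or differences on the log2(signal + 20) scale after quantile normalization, which understate changes of dim probe sets. Differences are given ± SE with 3 arrays per group, and adjusted p-values are from limma over all 11107 probe sets tested. Tested were probe sets whose mean log2 value exceeded 6.33, the median. Of the members 13 probe sets of 9 genes passed that filter. They were filtered on their mean over all arrays, so the choice did not use the groups. Array medians of signal ran from 57.1 to 60.7 in control 0 h, 66.3 to 72.4 in control 24 h, 58.7 to 65.6 and 59.6 to 65.9 after 4 h and 12 h of IL-13 and 56.7 to 64.4 after 24 h. Arrays of one group correlated at 0.971 to 0.983. Of 6 epithelial markers 5 passed the filter (KRT7, KRT8, KRT18, KRT19 and CDH1, not EPCAM). Their summed signal with EPCAM was 17587 to 21975 over all arrays. Of the markers of fibroblasts, endothelium and leukocytes THY1, PECAM1, CD3E and ITGAM passed. The others that had a probe set stood below the filter: COL1A2, COL3A1, DCN, LUM, PDGFRA, VWF, CDH5, TEK, KDR, PTPRC, CD14 and LST1.

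The member genes did not move as one block. After 24 h of IL-13, against untreated cells of the same time, the homeobox factor MSX1 rose 2.23-fold and no other member passed the test. Of the 13 tested member sets 1 rose and none fell, beside 6.45% called of all probe sets tested (3.48% higher and 2.97% lower). In untreated cells ID1, an inhibitor of differentiation, rose 1.77-fold from 0 h to 24 h, again as 1 of 13, beside 4.3% called of all (2.02% higher and 2.29% lower). Against control 0 h, 1 set rose at 4 h of IL-13, beside 0.972% called of all (0.333% higher and 0.639% lower). At 12 h 1 rose and 1 fell, beside 3.99% (1.58% higher and 2.41% lower). At 24 h 3 rose and 2 fell, beside 6.18% (2.91% higher and 3.27% lower). The rises at 24 h were MSX1, ID1 and ID3, and the falls were the ligands TGFB1 and TGFB2. The median difference over the 13 sets lay between -0.24 and -0.05 in the 5 comparisons, beside -0.0026 to 0.010 over all tested probe sets. The 3 comparisons of IL-13 with control 0 h and the comparison of the untreated groups share the control 0 h arrays, so their values are set side by side below and not treated as independent.

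**Figure D1:**
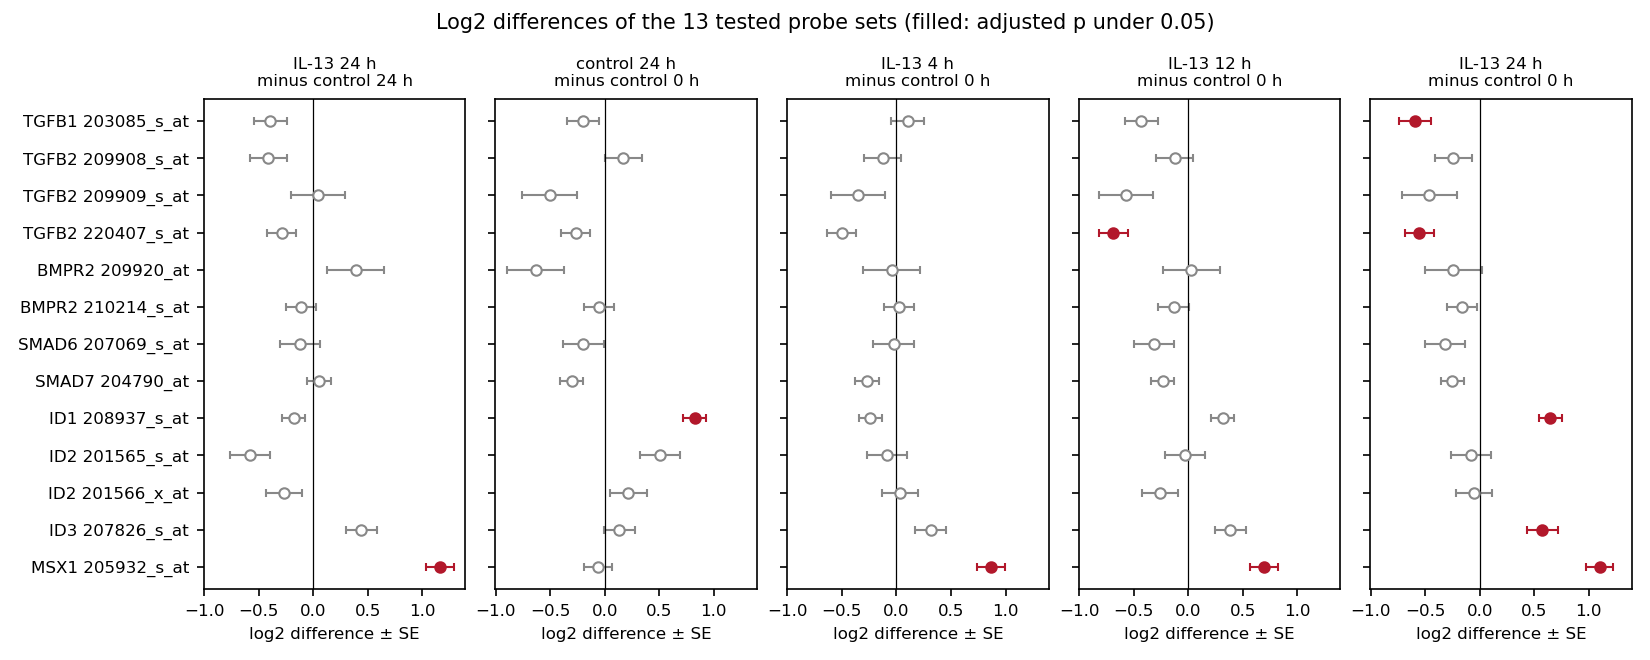
Each point is the log2 difference of 1 of the 13 tested member probe sets (rows) in 1 of the 5 comparisons (panels), with its SE from limma and 3 arrays per group. Filled points have an adjusted p under 0.05: MSX1 in the 4 panels with IL-13, ID1 in both comparisons of 24 h with 0 h, and ID3, TGFB1 and TGFB2 in the comparison of 24 h of IL-13 with 0 h, TGFB2 also at 12 h.

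Among the ligands, TGFB1, the most widely made TGF-beta isoform, was measured by 2 probe sets. The signal of the brighter one was 393.6, 444.6 and 454.4 in control 0 h and 428.6, 291.5 and 377.4 in control 24 h. It was 432.4, 411.7 and 530.4 after 4 h of IL-13, 339.9, 340.1 and 254.1 after 12 h, and 304.9, 300.8 and 226.8 after 24 h. All 6 arrays of 12 h and 24 h of IL-13 thus lay below the control 0 h arrays, while the 24 h treated and untreated arrays overlapped. Against 0 h the fall reached 0.59 ± 0.15 after 24 h of IL-13 (1.51-fold, adjusted p = 0.0228), a call that did not hold when array b or c of control 0 h or array c of IL-13 24 h was left out, or when no filter was set. The difference was -0.43 ± 0.15 at 12 h (adjusted p = 0.128), -0.20 ± 0.15 in untreated cells at 24 h (adjusted p = 0.481) and -0.39 ± 0.15 between the 24 h groups (adjusted p = 0.121), where the fall passed only without control 24 h array b (adjusted p = 0.0360). The other TGFB1 set lay at 5.17 to 11.5 on all arrays, below the filter.

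TGFB2, a second isoform of TGF-beta, has 4 probe sets, and 3 were tested. The signal of the brightest was 201.2, 174.7 and 194.6 in control 0 h and 157.6, 138.6 and 183.3 in control 24 h. It was 131.5, 124.9 and 120.9 after 4 h of IL-13, 93.5, 122.5 and 115.4 after 12 h, and 137.2, 103.4 and 122.1 after 24 h. By deposited signal every IL-13 array was below every control array of either time. After normalization the treated and untreated 24 h arrays overlapped, with IL-13 24 h array a (7.33 on the log2 scale) above control 24 h array b (7.28). Against 0 h it stood at -0.50 ± 0.13 at 4 h (adjusted p = 0.101), fell by 0.69 ± 0.13 at 12 h (1.61-fold, adjusted p = 0.00613) and by 0.55 ± 0.13 at 24 h (1.47-fold, adjusted p = 0.0182). The 24 h call did not hold when array a or c of control 0 h, or b or c of IL-13 24 h, was left out. Between the 24 h groups the difference was -0.29 ± 0.13 (adjusted p = 0.205), and in untreated cells -0.27 ± 0.13 (adjusted p = 0.270).

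The other TGFB2 sets gave no call. On the third by brightness the control 0 h arrays stood at 85.4, 85.5 and 90.9, above all IL-13 arrays (50.96 to 72.5), while control 24 h array c was the lowest of all at 27.1. Its differences from 0 h were -0.35 ± 0.25, -0.57 ± 0.25 and -0.46 ± 0.25 at 4 h, 12 h and 24 h. The second set stood at -0.24 ± 0.17 at 24 h of IL-13 against 0 h (adjusted p = 0.478). Between the 24 h groups it stood at -0.41 ± 0.17 (adjusted p = 0.153), with the untreated arrays at 86.2 to 123.2 and the treated ones at 54.8 to 74.4. The dimmest set (33.2 to 86.3 over all arrays) was below the filter. BMP4, the BMP ligand among the members, was measured by 1 probe set at 6.58 to 11.5, and its differences of -0.0040 to 0.10 were those of a probe set below the filter.

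BMPR2, the type II receptor of BMP ligands, showed no call on either probe set. The brighter set ran from 65.7 to 116.4 over the 15 arrays with differences between -0.16 and 0.03. The dimmer set, whose mean lay just above the filter, stood at -0.63 ± 0.26 in untreated cells at 24 h (adjusted p = 0.182) and at 0.39 ± 0.26 between the 24 h groups (adjusted p = 0.393). Its control 24 h arrays were spread over 70.1, 52.6 and 19.2, and array c is the same one that was lowest for the third TGFB2 set.

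SMAD7, which blocks type I receptors and recruits SMURF ubiquitin ligases, stood highest in control 0 h, at 259.7, 223.8 and 238.4. All 12 other arrays lay below these, between 164.1 and 215.3. Its differences from control 0 h were -0.31 ± 0.11 in untreated cells at 24 h (adjusted p = 0.117) and -0.27 ± 0.11, -0.23 ± 0.11 and -0.25 ± 0.11 at 4 h, 12 h and 24 h of IL-13 (adjusted p = 0.368, 0.280 and 0.202). Between the 24 h groups it was 0.05 ± 0.11 (adjusted p = 0.802). None of these passed, except that the fall in untreated cells passed when arrays were scaled on their medians (-0.46, adjusted p = 0.0178).

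SMAD6, the inhibitory SMAD that acts mainly on BMP signals, has 4 probe sets that differed among themselves. The tested one, the brightest, ran from 82.7 to 170.5 and its differences lay between -0.32 and -0.03 with no call. The second by brightness, below the filter, stood at 46.9, 40.5 and 37.5 in control 0 h and at 21.2, 14.8 and 26.2 in control 24 h. It was 14.9, 9.0 and 21.0 after 4 h of IL-13, 26.9, 19.7 and 26.4 after 12 h, and 38.1, 23.3 and 40.4 after 24 h. The control 0 h arrays were thus above all arrays of control 24 h, 4 h and 12 h, with part of the 24 h IL-13 arrays among them. With no filter the adjusted p was 0.0645 in untreated cells and 0.0790 at 4 h of IL-13. The remaining SMAD6 sets, at 7.44 to 49.1 and 2.38 to 26.1, were also below the filter.

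**Figure D2:**
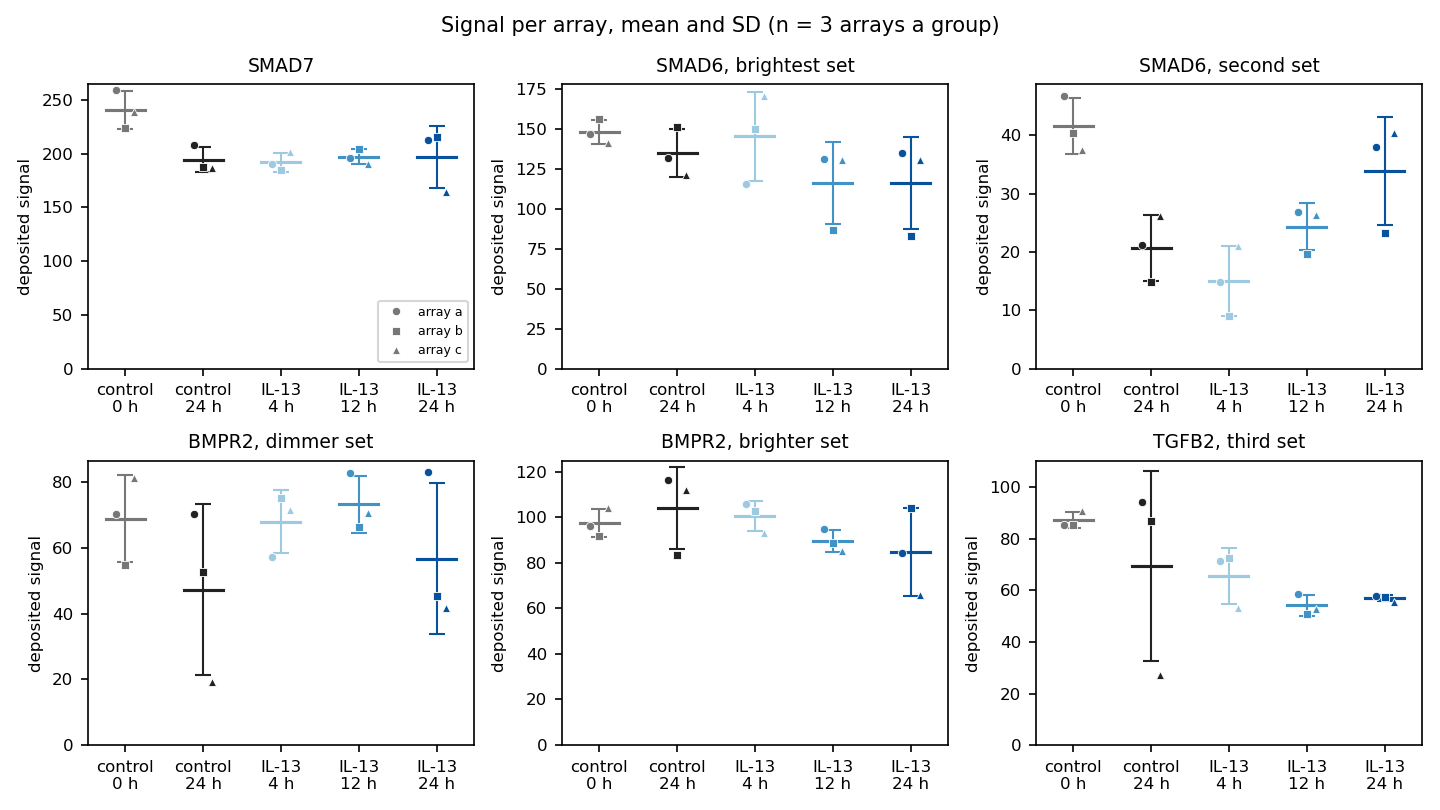
Deposited signal on a linear axis from 0 for SMAD7, the brightest and second SMAD6 probe sets, both BMPR2 probe sets and the third TGFB2 probe set; points are arrays a, b and c, lines the mean and bars the SD of 3 arrays in each of the 5 groups. The SMAD7 arrays of control 0 h (223.8 to 259.7) lie above all others, and control 24 h array c is low for the dimmer BMPR2 set (19.2) and the third TGFB2 set (27.1).

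ID1, the target gene most often used as a readout of BMP signalling, was higher in both 24 h groups than at 0 h. Its signal was 1019, 1032 and 1053 in control 0 h, and IL-13 arrays of 4 h gave 842.2, 916.1 and 845.2. It was 1322, 1296 and 1287 after 12 h, 1915, 1369 and 1628 after 24 h, and 1496, 1970 and 1509 in untreated cells at 24 h. The 4 h arrays were all below 0 h, the 12 h and 24 h arrays all above it, and the treated and untreated 24 h arrays overlapped. Against 0 h, ID1 rose by 0.82 ± 0.11 in untreated cells (1.77-fold, adjusted p = 0.000301) and by 0.64 ± 0.11 with 24 h of IL-13 (1.56-fold, adjusted p = 0.00115). Between the 24 h groups the difference was -0.18 ± 0.11 (adjusted p = 0.323). At 4 h and 12 h the differences were -0.24 ± 0.11 (adjusted p = 0.424) and 0.32 ± 0.11 (adjusted p = 0.106). The 12 h difference passed only when the other groups were left out of the model (adjusted p = 0.0439). The 3'/5' signal ratio of beta-actin, which reflects how intact the RNA was, was also higher at 24 h: 0.930 to 1.06 in control 0 h, 1.11 to 1.24 in control 24 h and 1.09 to 1.23 in IL-13 24 h. That of GAPDH was 0.862 to 0.907, 0.875 to 0.918 and 0.854 to 0.90 in the same groups, which overlap. The part of the beta-actin shift in the differences of 24 h from 0 h was not tested.

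ID3 was called in 1 of the 5 comparisons, 24 h of IL-13 against 0 h. Its signal was 632.1, 713.2 and 642.8 in control 0 h. The untreated 24 h arrays gave 683.6, 789.7 and 590.7, and those with 24 h of IL-13 gave 1068, 923.8 and 989.2. After 4 h it was 735.1, 1103 and 672.3, with array b far above the other 2, and after 12 h 886.2, 971.7 and 702.3. The 24 h IL-13 arrays lay above all 6 untreated arrays. Against 0 h ID3 rose by 0.57 ± 0.14 at 24 h of IL-13 (1.49-fold, adjusted p = 0.0209), a call lost in 6 of 18 other settings: median scaling, no filter, and leaving out array a or c of either group. Against the 24 h control it stood at 0.44 ± 0.14 (1.36-fold, adjusted p = 0.0701). That difference passed in 5 of 18 other settings, among them the values as deposited and median scaling (range 0.35 to 0.70). In untreated cells it stood at 0.13 ± 0.14 (adjusted p = 0.642).

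ID2 was called in none of the 5 comparisons, though some other settings gave a call. On the brighter of its probe sets the untreated 24 h arrays stood at 687.2, 731.8 and 562.2 and the treated ones at 437.4, 528.3 and 413.9, with no overlap. The difference was -0.58 ± 0.18 (1.49-fold, adjusted p = 0.0676), and it passed under the 75th percentile filter and when the other groups were left out of the model. The control 0 h arrays spread widely, over 521.2, 320.9 and 670.1, and without control 0 h array c, the highest, the difference of untreated cells from 0 h passed at 0.72 (adjusted p = 0.0392), beside 0.50 ± 0.18 with it (adjusted p = 0.128). The other ID2 set, of a kind that can cross-hybridize, had the same signs at 24 h: -0.27 ± 0.17 between the 24 h groups (adjusted p = 0.351) and 0.22 ± 0.17 in untreated cells. Between the 24 h groups ID3 stood at 0.44, ID1 at -0.18 and ID2 at -0.58 on its brighter set and -0.27 on the other, none of them called. ID1 turned to 0.16 with median scaling and 0.03 with tested-set median scaling, while ID2 and ID3 kept their signs in all 18 other settings and passed the threshold in 2 and 5 of them. Differences between the ID genes were not tested.

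MSX1, a homeobox repressor and BMP target of limb and craniofacial development, was the only member called between the 24 h groups. Its signal was 98.6, 78.2 and 99.7 in control 0 h and 82.8, 109.9 and 100.8 in control 24 h. The signal reached 168.6, 195.7 and 199.1 after 4 h of IL-13, 172.4, 148.0 and 171.0 after 12 h, and 216.2, 224.2 and 236.3 after 24 h. Every IL-13 array was above every untreated array, and the untreated groups overlapped. The rise against the time-matched control was 1.16 ± 0.13 (adjusted p = 5.82e-05). Against 0 h the rises were 0.87 ± 0.13 at 4 h (1.82-fold, adjusted p = 0.00155), 0.69 ± 0.13 at 12 h (1.62-fold, adjusted p = 0.00413) and 1.10 ± 0.13 at 24 h (2.14-fold, adjusted p = 7.21e-05). In untreated cells the difference was -0.06 ± 0.13 (adjusted p = 0.838). MSX1 has 1 probe set on the array, so no other set bears on its values. At the 75th percentile filter it was too dim to be tested.

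**Figure D3:**
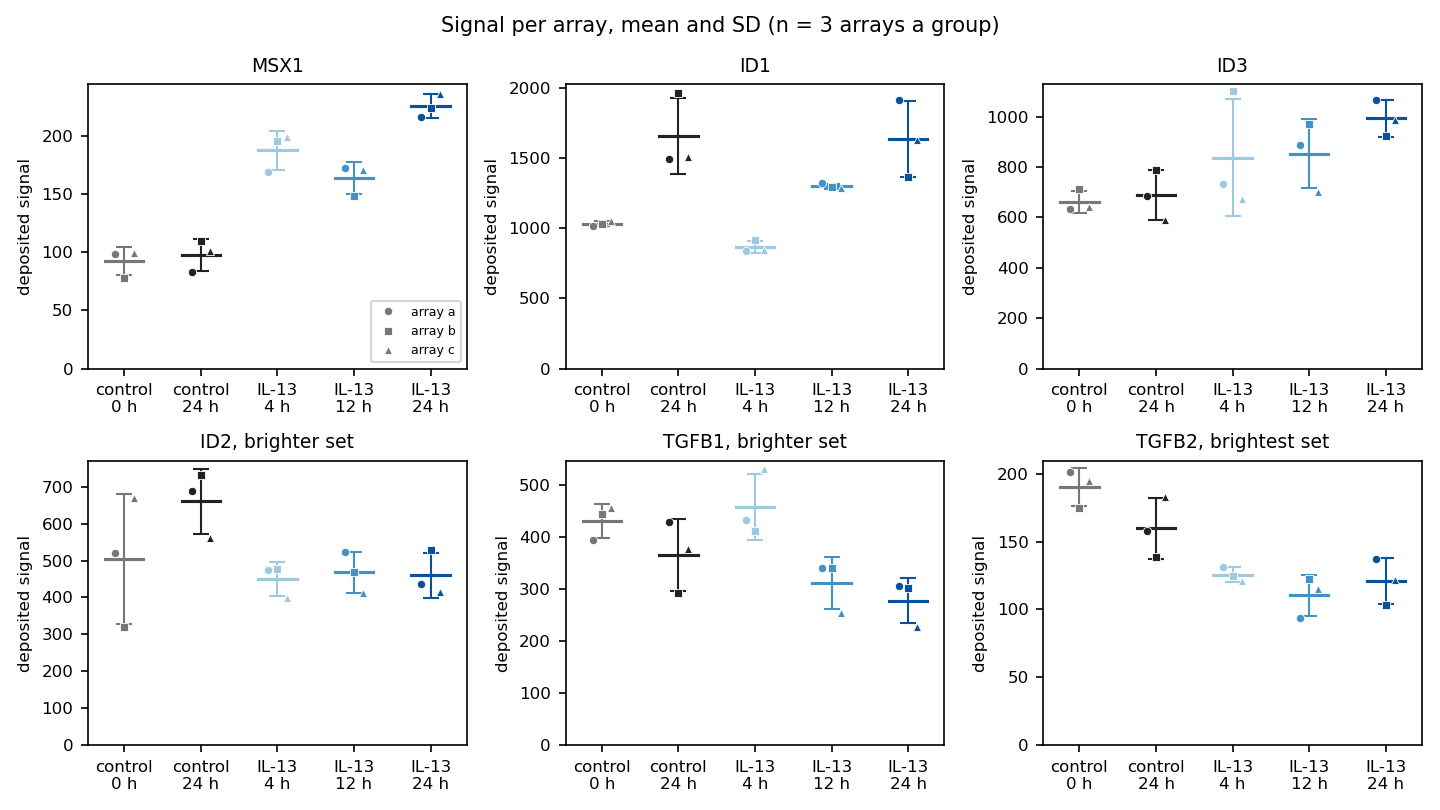
Deposited signal on a linear axis from 0 for MSX1, ID1, ID3, ID2, TGFB1 and TGFB2; points are arrays a, b and c, lines the mean and bars the SD of 3 arrays in each of the 5 groups. All 9 MSX1 arrays with IL-13 (148.0 to 236.3) lie above the 6 without it (78.2 to 109.9), and ID1 is high in both 24 h groups.

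The genes whose pattern was most like that of MSX1 over the 15 arrays, among 8723 probe sets with a single symbol, were PLPP3 (Pearson r = 0.937), TM4SF1 (0.908) and PEX3 (0.905). For ID1 they were MKNK2 (0.916), MID1 (0.898) and HHEX (0.895). The arrays fall into 5 groups and share their normalization, so these values describe likeness of level only.

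Of 103 further genes of the pathway, 93 had a probe set of their own symbol and 63 passed the filter, 1 probe set each. After 24 h of IL-13 against the time-matched control 7 of these fell and 1 rose, beside 6.45% called of all tested probe sets (3.48% higher and 2.97% lower). The median was -0.11 beside -0.0014 over all. Most falls, 4 of 15 tested, were among genes known to be induced by TGF-beta: the proteoglycan VCAN (-1.12 ± 0.13, adjusted p = 7.86e-05), collagen COL1A1 (-0.78 ± 0.15, adjusted p = 0.00548), fibronectin FN1 (-0.66 ± 0.14, adjusted p = 0.0114) and the matrix protein TGFBI (-0.33 ± 0.09, adjusted p = 0.0293). The call of COL1A1 rests on its brightest set: the other tested one, of the cross-hybridizing kind, stood at -0.29 ± 0.08 (adjusted p = 0.0844), and those below the filter at -0.12 and -0.31. The other tested sets of VCAN stood between -1.31 and -0.75 and those of FN1 between -1.0 and -0.46, with 1 of each gene not called and a set of each below the filter at -0.17 and 0.16. TGFBI lost its call in 11 of 18 other settings, among them leaving out any 1 array of control 24 h or array b or c of IL-13 24 h. FN1 lost it in 3, the scalings on all medians and on tested-set medians and the one without array c of IL-13 24 h. The summed signal of the 6 fibroblast markers was also lower after 24 h of IL-13, at 141 to 193 against 207 to 277 in the other groups. Only THY1 of these passed the filter and the labels name A549 alone, so the sum does not measure a number of fibroblasts. The part of this lower sum in these falls was not tested.

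Among the genes known to be induced by BMP 1 of 6 fell, the chondrogenic and lung epithelial factor SOX9 (-0.69 ± 0.13, 1.61-fold, adjusted p = 0.00544, other probe set -0.88). The BMP ligand BMP6 was the only called gene of 6 other ligands (-0.57 ± 0.15, adjusted p = 0.0339, call lost in 6 of 17 other settings, 4 of them leaving out array a or c of control 24 h or a or b of IL-13 24 h). Its other set, below the filter, stood at 0.03. Among 16 SMADs and their regulators PPM1A, a phosphatase of activated SMAD proteins, rose by 0.94 ± 0.15 (1.91-fold, adjusted p = 0.00128), while its other set, below the filter, stood at -0.13. Its untreated cells had fallen from 0 h to 24 h by 0.57 ± 0.15 (adjusted p = 0.0359, call lost in 8 of 18 other settings, among them leaving out any 1 array of control 0 h or array c of control 24 h), and its mean signal was 256.8 at 0 h, 173.3 in control 24 h and 341.5 after 24 h of IL-13. No gene passed among 7 other receptors, 7 genes of latent forms and activation, and 6 antagonists. With median scaling, which moved the median difference of all tested probe sets to 0.13 here, 5 of the 63 genes rose and 4 fell.

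SMAD3, the TGF-beta SMAD, gave opposite calls on different probe sets. The brightest fell by 0.35 ± 0.10 between the 24 h groups (adjusted p = 0.0469), a call lost in 12 of 18 other settings, among them leaving out any 1 array but IL-13 24 h array b. Another set, of the cross-hybridizing kind and described after its values were seen, rose by 0.90 ± 0.28 (adjusted p = 0.0434). That set stood at 287.7, 287.1 and 348.2 in control 0 h, then 95.3, 82.7 and 34.2 in control 24 h. Its arrays of 24 h IL-13 were at 176.1, 112.4 and 101.3. In untreated cells the change on it was -2.02 ± 0.28 (adjusted p = 0.000301). Against 0 h the direction was shared by all 4 SMAD3 sets: with 24 h of IL-13 the brightest fell by 0.49 ± 0.10 (adjusted p = 0.00709), the cross-hybridizing set fell by 1.12 ± 0.28 (adjusted p = 0.0131), and the other 2 stood at -0.62 ± 0.11 (adjusted p = 0.00356) and -0.33 ± 0.17 (adjusted p = 0.278).

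In untreated cells 5 of the 63 genes rose and 3 fell from 0 h to 24 h, beside 4.3% called of all tested probe sets (2.02% higher and 2.29% lower). The median was 0.10. The rises were VCAN (0.89 ± 0.13), FN1 (0.80 ± 0.14), TSC22D1 (0.47 ± 0.09, a TGF-beta stimulated leucine zipper gene), FST (0.62 ± 0.17, an activin antagonist) and BAMBI (0.41 ± 0.11), a pseudoreceptor that blocks TGF-beta and BMP receptors. The falls were ENG (-0.94 ± 0.25, other probe set 0.20), PPM1A and the actin-binding gene TAGLN (-0.70 ± 0.16). The other FST set stood at 0.24 ± 0.19 (adjusted p = 0.497). COL4A1 was not called on its brightest set (-0.42 ± 0.14, adjusted p = 0.0928), but its other set fell by 1.28 ± 0.28 (adjusted p = 0.0100). FST, BAMBI and ENG lost their calls in 9 of 17, 11 of 18 and 10 of 17 other settings, each without any 1 array of control 0 h or without array a or c of control 24 h. TAGLN lost its call in 5 of 18. These were no filter and leaving out array a or b of control 0 h or a or c of control 24 h. FN1 and TSC22D1 lost theirs with median scaling, and TSC22D1 also with tested-set median scaling. With median scaling the median difference of all tested probe sets was -0.15, and 2 of the 63 rose and 8 fell. This comparison and that of the 24 h groups share the control 24 h arrays, with opposite sign, so opposite values of a gene in them are not independent. Against control 0 h, 24 h of IL-13 gave -0.23 for VCAN (adjusted p = 0.359) and 0.15 for FN1 (adjusted p = 0.633).

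With IL-13 against 0 h, 1 of the 63 fell at 4 h, BHLHE40 (-0.65 ± 0.10, adjusted p = 0.00281), a circadian and TGF-beta induced repressor, whose other set also fell (-0.54 ± 0.12, adjusted p = 0.0469). That is 1 of 63 beside 0.972% called of all tested probe sets. SOX9 was not called at 4 h on its brightest set (-0.49 ± 0.13, adjusted p = 0.108). Its other set was called (-0.45 ± 0.09, adjusted p = 0.0359). At 12 h 5 fell and none rose, beside 3.99%: CCN2, a matrix growth factor and standard TGF-beta target (-1.03 ± 0.19, 2.04-fold, adjusted p = 0.00457), VCAN (-0.62 ± 0.13), the BMP mediator SMAD1 (-0.59 ± 0.14), COL4A1 (-0.55 ± 0.14) and BHLHE40 (-0.38 ± 0.10). Of their other tested sets, that of BHLHE40 was called at -0.50 (adjusted p = 0.0302) and a cross-hybridizing one of VCAN at -0.60 (adjusted p = 0.0119). Not called were those of VCAN at -0.52 and -0.28 (adjusted p = 0.249 and 0.318) and of COL4A1 at -0.70 (adjusted p = 0.153). The other SMAD1 set, below the filter, stood at -0.12. BHLHE40 lost that call in 10 of 18 other settings, among them leaving out array a or c of control 0 h or any 1 of IL-13 12 h. Leaving out array a of control 0 h also ended the calls of VCAN, SMAD1 and COL4A1. That of SMAD1 ended without array b of control 0 h or a of IL-13 12 h too, and that of COL4A1 without b of control 0 h or b or c of IL-13 12 h. At 24 h 2 rose and 5 fell, beside 6.18%. The rises were TSC22D1 (0.68 ± 0.09, adjusted p = 0.000150) and BAMBI (0.41 ± 0.11, adjusted p = 0.0322). The falls were COL1A1 (-0.90 ± 0.15), TAGLN (-0.74 ± 0.16), COL4A1 (-0.71 ± 0.14), SOX9 (-0.58 ± 0.13) and SMAD3. The other tested COL1A1 set stood at -0.28 ± 0.08 (adjusted p = 0.103) and those below the filter at 0.20 and 0.02, while the other COL4A1 set fell by 1.48 ± 0.28 (adjusted p = 0.00179). Without array c of IL-13 24 h the falls of TAGLN and SOX9 did not pass, nor that of TAGLN without array b or of SOX9 without array c of control 0 h. BAMBI lost its call in 6 of 18 other settings, 5 of them leaving out any 1 array of control 0 h or array a or b of IL-13 24 h.

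**Figure D4:**
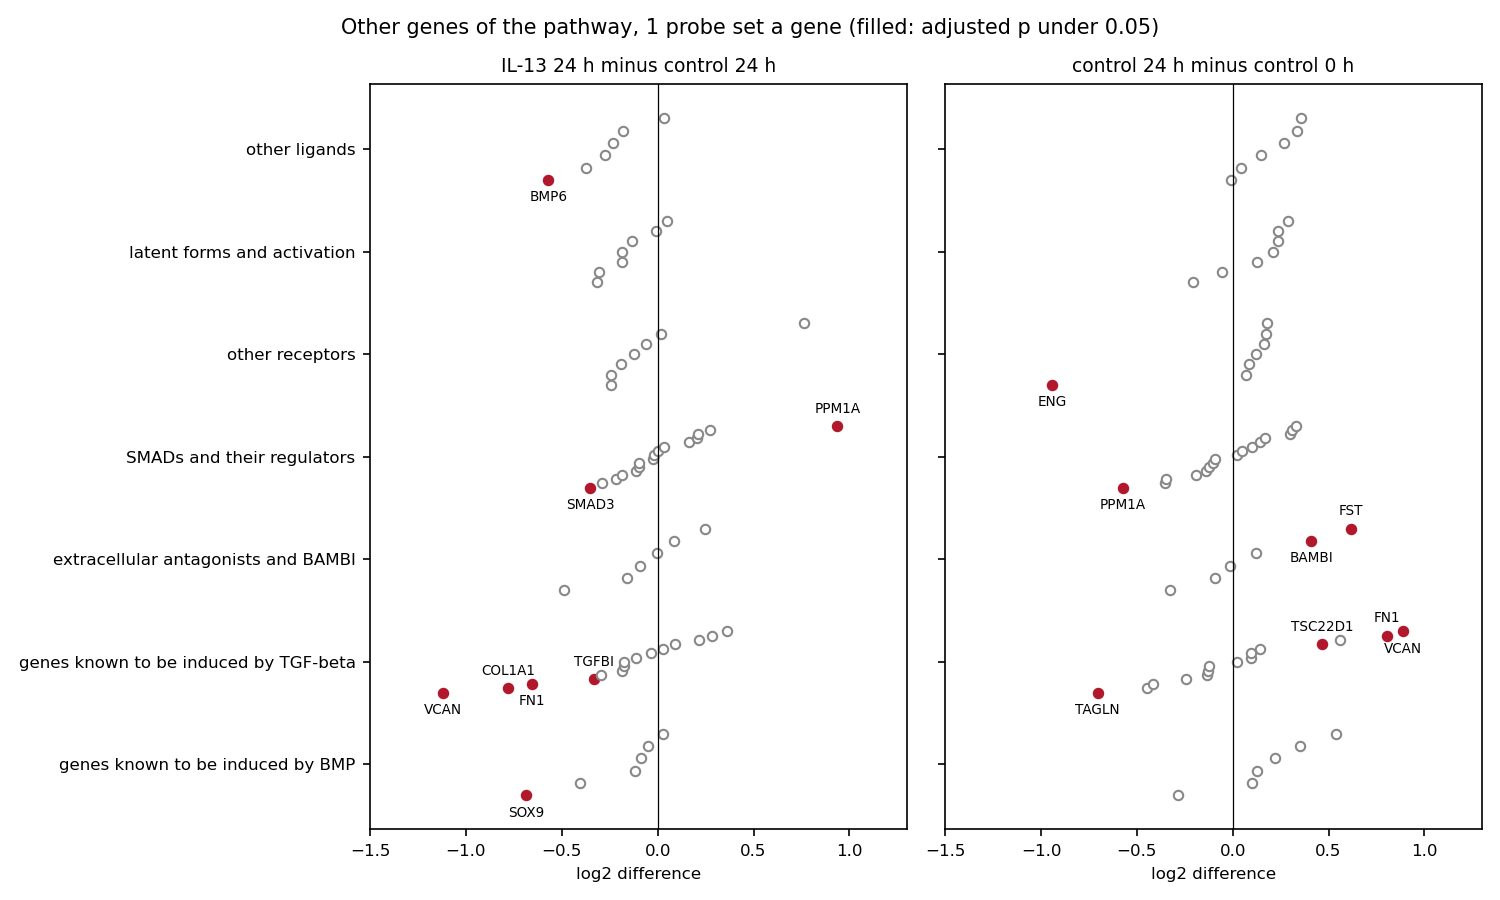
Each point is the log2 difference of 1 of 63 tested pathway genes outside the member set, by list (rows), for IL-13 24 h minus control 24 h (left) and control 24 h minus control 0 h (right), with 3 arrays per group. Filled and named points have an adjusted p under 0.05 by limma; VCAN and FN1 lie at -1.12 and -0.66 on the left and at 0.89 and 0.80 on the right.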

How the data were processed

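The deposited values are signal intensity per probe set on a linear scale. The sources used here do not say how the authors made them. After trimming 2% at each end the mean of every array lies between 150.04 and 150.06. Of 22283 probe sets 68 are array controls and were left out. A pseudocount of 20 was added, log2 taken, and the arrays quantile normalized, since their medians differed by 0.269 log2, over a tolerance of 0.1. Each of 11107 probe sets above the median mean (50th percentile, 6.33) was its own test in limma 3.58.1 (R 4.3.3): 1 mean per group over 15 arrays, 10 residual degrees of freedom, empirical Bayes with a variance trend, two-sided, Benjamini-Hochberg adjustment, threshold 0.05, in 5 comparisons. The steps were tested on simulated data. That test set a requirement on recovery only for changes of 3-fold, larger than any member difference here. The small number of arrays, 3 per group, limits the precision.

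The members and the lists were chosen with earlier results of these data known. Named were all member probe sets and up to 3 called genes a direction of each pathway list and comparison by p. Named too were the 3 genes most like ID1 and MSX1. After their values were seen, the other probe sets of named pathway genes were added, and COL4A1, SOX9, VCAN and FN1 where not called. Pathway genes rest on their brightest probe set. CCAAT and TATAA were chosen after the promoters were read. Alternatives were the scaling, pseudocounts of 1 and 62, no filter or one at the 75th percentile, 1 probe set a gene, a fit of only the compared groups, a fit without the variance trend, weights for arrays, a replicate block (letters a to c), and each array left out in turn. Gene symbols are those of the platform annotation.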

Additional observations from a re-analysis of the deposited data

How the results depend on the processing

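Of the 10 member differences past the threshold, all kept their direction in every alternative that tested them and 7 kept their call; TGFB1, TGFB2 and ID3 at 24 h of IL-13 against 0 h each lost it in some. Of 55 member differences not past the threshold 6 passed in at least 1 alternative and 17 changed sign in at least 1. In IL-13 24 h against control 24 h, 1 member set was called. The count was 2 with the values as deposited, median scaling, tested-set median scaling, the 75th percentile filter and only these groups, and 1 to 2 with an array left out. With the replicate block it was also 2. Beside MSX1 the second set was ID2 with only these groups. It was ID3 with the values as deposited, the median scalings and the replicate block. Under the 75th percentile filter, where MSX1 was not tested, the 2 sets were of ID2 and ID3. The other counts of member sets were 2 for untreated cells with median scaling (1 to 2 with an array left out), 0 at 4 h and 0 at 12 h with the 75th percentile filter, and 3 at 24 h against 0 h with no filter or the 75th percentile filter (2 to 4 with an array left out). Arrays of the same letter (a, b or c) showed little likeness: in the groups compared, their deviations from the group means correlated at -0.21 to 0.10. These values do not tell what the letters mark. Of 29 pathway calls 18 were lost in some alternative and none changed sign. Their counts moved to 5 in IL-13 24 h against control 24 h with only these groups (5 to 8 with an array left out). In untreated cells they moved to 3 with no filter, 5 with only these groups, 4 with no variance trend and 4 with the replicate block (3 to 9 with an array left out). At 4 h they moved to 2 with median scaling, the 75th percentile filter or array weights. At 12 h they moved to 3 with no filter and 8 with array weights (2 to 4 with an array left out). Member probe sets below the filter, BMP4 and 3 SMAD6 sets among them, were tested only in the alternative with no filter, where none was called, and no detection calls were used.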
